A study of Mus musculus with 12 samples.

Results

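Chromatin accessibility in the PTC2 line was set against that in the LD line, both made from NIH/3T3, a mouse embryo fibroblast line that grows without limit. PTC2 cells carry an insertion of 4036 nt after position 1096 of the Actg1 transcript, which puts a premature stop codon into exon 5. In LD cells the whole Actg1 locus is deleted. Beside them stood PTC1, in which 1 inserted nt after position 280 of the Actg1 coding sequence gives a premature stop codon in exon 3, and unedited WT cells. Each of the 4 groups had 3 biological replicates, so 6 of the 12 libraries in the table were compared here, with PTC1 and WT used only to place the other lines. All mutants were made with CRISPR-Cas9, no clone is named for any of them, and each allele was taken as 1 line. A p-value below therefore measures the spread between samples of a line and not between independently made lines.

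Actg1 encodes cytoplasmic gamma-actin. An mRNA with a premature stop codon is a substrate of nonsense-mediated decay, and in transcriptional adaptation the decay of such an mRNA is followed by higher transcription of related genes. A deleted locus makes no mRNA to decay, so a premature stop line set against a locus deletion compares cells that both lack the normal gene product but differ in whether a mutant mRNA can be made. ATAC-seq reads accessibility through the Tn5 transposase, which cuts and tags open DNA such as promoters and enhancers.

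Of 81995 regions in the deposited table, 81985 had a mean of 5 or more over the 12 sample columns and were tested, and 10 were left out. Values are whole normalised read counts. Their sum per library was 33.57 to 34.8 M (mega) in PTC2 libraries, against 31.29 to 32.41 M in LD libraries. The reads behind them, estimated from how unevenly each column uses the whole numbers, came to 35.81 to 44.98 M in PTC2 libraries, against 25.03 to 33.33 M in LD libraries, so depth moved with the line. The part of depth in the results was not tested. Across regions, Pearson's r between libraries was 0.986 to 0.987 within PTC2, 0.982 to 0.985 within LD and 0.896 to 0.9 between PTC2 and LD. WT libraries correlated with PTC2 at 0.897 to 0.904 and with LD at 0.93 to 0.933. Regions are not independent replicates, so these values only describe the libraries.

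Both lines carried the open start sites of fibroblasts. All 11 defining fibroblast markers had a listed region, 9 of them had a mean of 500 or more in both lines, and their summed value was 18252 to 19722 in PTC2 and 16952 to 18152 in LD. Defining markers of other cell types, a short set for each, were lower but mostly not absent. The 3 adipocyte markers with a region summed to 719 to 765 in PTC2 and 1223 to 1261 in LD. Of these 3, 1 (Fabp4) was higher in PTC2 and 2 were lower. The 3 blood cell markers summed to 572 to 606 in PTC2 and 714 to 783 in LD. The 4 epithelial markers summed to 1020 to 1028 in PTC2 and 292 to 341 in LD. At the region nearest the start site, Krt5 alone of these 4 was higher in PTC2, and 3 were lower. Another region listed with Krt14, one of the 3, lay in a run of 17 neighbouring regions on chromosome 11 that were all higher in PTC2. The 2 endothelial markers summed to 161 to 197 in PTC2 and 115 to 134 in LD, and the 2 muscle markers to 40 to 53 in PTC2 and 37 to 41 in LD, while the 5 defining neural markers had no listed region. Longer lists of cell type markers are counted with the gene groups. Whether fewer cells open a region or each cell opens it less cannot be told apart in these bulk libraries.

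The lines differed over much of the open genome. The log2(value + 1) of each region was compared in limma over the 6 libraries, and regions whose p stayed under 0.05 after Benjamini-Hochberg adjustment across the whole table were called. PTC2 exceeded LD in 24673 regions (30.1%) and was below LD in 24709 (30.1%), together 60.2% of those tested. In 23517 of the higher and 23511 of the lower regions, all 3 PTC2 libraries lay beyond all 3 LD libraries. The split depends on the scaling: with every library brought to the same median, which shifts the median difference by 0.17 on the log2 scale, 32542 regions were higher and 19292 lower in PTC2. Most differences were small. From the 5th to the 95th percentile of regions, the log2 difference of PTC2 minus LD ran from -1.74 to 1.40, and its quartiles were -0.53 and 0.40.

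The balance of large differences turned with the scaling. The difference was called and at least 1 on the log2 scale in 7243 regions higher in PTC2 (8.83%) and 11135 lower in PTC2 (13.6%), but in 9373 higher and 8901 lower with every library at the same median. It was 3 or more in 580 higher and 703 lower regions. A near-complete switch, with a mean over 100 in one line and at most 10 in the other, was found in 55 regions open in PTC2 and 88 open in LD.

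Likeness was tested on its own, since a p that misses a threshold does not show that lines are alike. An equivalence test within 1.5-fold, adjusted in the same way, called 24662 regions (30.1%) alike in PTC2 and LD. Of these, 9005 were also called different, which means that their difference was measurable but under 1.5-fold. Another 16946 regions (20.7%) were neither called different nor called alike.

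Start sites were where the lines resembled each other most. Of 12449 regions centred within 1000 bp of a listed start site, 61.5% were alike within 1.5-fold, against 22.9% of the 56942 regions with no listed gene. Only 9.11% of start-site regions were called with a difference of at least 1 on the log2 scale, against 25.9% of regions with no gene and 19.6% of the 12594 regions near a gene but farther from its start. Regions with such a difference were narrow and weak, with median widths of 390 bp where PTC2 was higher and 426 bp where it was lower, and median levels of 57 (higher) and 65.7 (lower). Alike regions were 868 bp wide at the median, with a level of 607, beside 522 bp and 122 over all regions. The part of level in the share called alike was not tested.

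A slight general tilt separated strong from weak regions. At start sites, PTC2 was higher in 47.5% and lower in 16.9%, with a median difference of 0.16, while regions with no gene were higher in 26.5% and lower in 33.3%. The median difference was between -0.16 and -0.09 in regions with a level below 200 and between 0.11 and 0.18 in regions above 500. Loess normalization, which removes such a dependence on level, left 33.0% of start sites higher and 27.5% lower, with a median of 0.03. Counts of genes below are therefore read against all 12337 genes, each taken at the region nearest its start site: 47.5% were higher in PTC2, 16.3% lower and 62.1% alike, with a median difference of 0.16. PTC2 exceeded LD by at least 1 on the log2 scale, with a call, in 3.7% of genes and was below it by as much in 5.25%. Under loess 32.9% of genes were higher and 26.9% lower.

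The question of related genes was asked first at the other actins. Across 18 regions listed with or within 10000 bp of an actin gene, 8 were higher in PTC2, 2 were lower and 8 were not called, and no region lay in the 71572 bp between 120298089 and 120369661 on chromosome 11 that hold Actg1 itself, so the deletion could not be read at the gene. Actg2, which encodes gamma-actin of smooth muscle, separated the lines most at its start site. At chr6:83535961-83536888 (mm10, centre 160 bp from the start) it had 353, 331 and 339 normalised reads in the PTC2 libraries, against 35, 54 and 40 in the LD libraries. PTC2 was thus 7.9-fold higher (log2 2.98, SE 0.159, limma adjusted p = 1.41e-14), every PTC2 library lay far above every LD library, and WT averaged 27 ± 10.1 (SD, n = 3). LD was called above WT there as well (log2 0.70, limma adjusted p = 0.00498), and PTC1 had 430, 415 and 369.

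The differences were smaller elsewhere at the Actg2 locus. Inside the gene, chr6:83533791-83534017 had 77, 78 and 85 in PTC2 against 8, 11 and 17 in LD (log2 2.70, SE 0.281, adjusted p = 5.29e-09). Upstream of the gene, chr6:83541748-83542936 had 153, 131 and 168 in PTC2 against 64, 91 and 71 in LD, a difference of 1.00 (SE 0.166, adjusted p = 9.78e-06). Chromosome 6 as a whole was higher in PTC2, so each difference was also taken relative to the 50 nearest regions (local centring). The start site then kept 2.22 and the region inside the gene 1.95, while the upstream region was at 0.23 and no longer called (adjusted p = 0.256), the region beyond the 3′ end was at -0.22 (0.54 uncentred) and the start site of the neighbouring Dguok, a mitochondrial nucleoside kinase gene, at -0.13 (0.63 uncentred). The 3′ region lost its call without LD replicate 3 (0.42, adjusted p = 0.0583).

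The start sites of Actb and Acta2 differed little between the lines. Actb, the beta-actin gene, had 3123, 2916 and 2901 in PTC2 and 2979, 2706 and 2713 in LD at its start site (chr5:142905667-142907273). Its difference of 0.09 (95% interval -0.02 to 0.21, adjusted p = 0.165) was not called and lay within 1.5-fold in the equivalence test (adjusted p = 1.16e-07), and both lines averaged less than WT with its 3331 ± 23.5. Under loess normalization the Actb difference turned to -0.15 (adjusted p = 0.00208). The other regions near Actb were not called and were alike within 1.5-fold. At chr5:142912806-142913053 both lines lay below WT, with means of 51.33 (PTC2) and 55 (LD) against 120 in WT. Acta2, the vascular smooth muscle alpha-actin gene, had 1959, 1905 and 1859 in PTC2 and 1719, 1659 and 1773 in LD (log2 0.15, adjusted p = 0.0274), and it too was alike within 1.5-fold. The Acta2 call was lost, at 0.13 to 0.15, without PTC2 replicate 1, PTC2 replicate 2 or LD replicate 2, and its difference was -0.04 under loess.

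At the other 4 Acta2 regions, 2 were higher in PTC2 and 2 were not called. Upstream of its start site, chr19:34265495-34266122, had 970, 1064 and 981 in PTC2 against 704, 768 and 722 in LD (log2 0.46, adjusted p = 4.81e-06), and both lines exceeded the WT mean of 391.7 ± 29.5. Inside the gene, chr19:34243936-34244552 had 333, 410 and 373 in PTC2 against 224, 231 and 230 in LD (log2 0.70, adjusted p = 2.03e-06). The 2 not called were at 0.35 (adjusted p = 0.151) and, alike within 1.5-fold, at -0.10. Both lines exceeded WT at these 2 as well. The means were 77.67 (PTC2) and 59 (LD) against 15.67 in WT at chr19:34240522-34240851. At chr19:34241387-34241746 they were 79.67 (PTC2) and 85.67 (LD) against 54.33 in WT. Near Acta1, the skeletal muscle alpha-actin gene, the direction was the opposite: chr8:123887473-123888515 had 547, 500 and 503 in PTC2 against 919, 911 and 876 in LD (log2 -0.80, adjusted p = 8.95e-10), and a neighbouring region was at -0.73, while the third region there was alike within 1.5-fold (-0.10). The 1 region near Actc1, the cardiac alpha-actin gene, had 47, 41 and 50 in PTC2 and 61, 66 and 61 in LD (log2 -0.44, adjusted p = 0.0668).

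**Figure D1:**
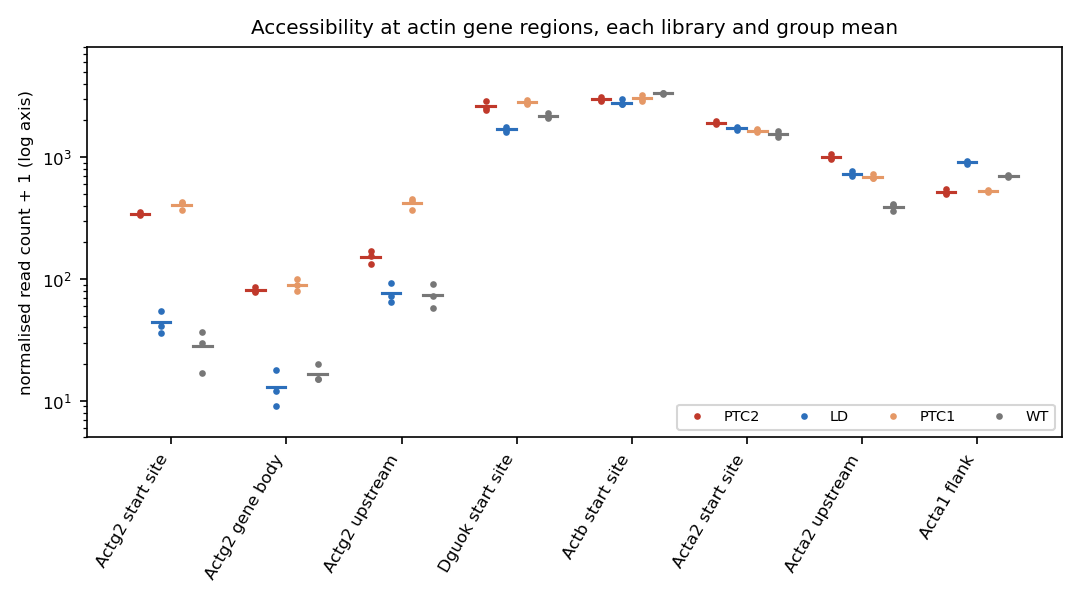
Normalised read count plus 1, on a log axis, at 8 regions of the actin gene loci in each of the 3 libraries of PTC2, LD, PTC1 and WT (points) with the group mean (line). At the Actg2 start site the PTC2 libraries sit at 331 to 353 and the LD libraries at 35 to 54, while at Actb all libraries lie close together.

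Outside the actins, a small number of promoters were open in 1 line and nearly closed in the other. Among 4753 start-site regions that were higher in PTC2 with no overlap of libraries and a mean of 100 or more, the 12 largest differences with a listed gene were taken, and the 11 described here ran from 3.79 to 6.38 on the log2(value + 1) scale. They cover receptors, signal proteins and enzymes with no common pathway tested. Il1rapl1, which encodes a synaptic receptor of the interleukin-1 receptor family, had 101, 132 and 127 in PTC2 and 2, 0 and 0 in LD. Summed over the libraries this is an estimated 435 reads in PTC2 and 2 in LD, a ratio of 168 with a 95% counting interval of 46.1 to 1390. Its log2 difference of 6.38 (adjusted p = 1.11e-12) was 3.60 with a pseudocount of 10.

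Trim68, a RING-type ubiquitin ligase gene, had 465, 482 and 521 in PTC2 against 10, 16 and 4 in LD (log2 5.65, SE 0.273, adjusted p = 2.11e-15). Hs3st3b1, an enzyme gene for 3-O-sulfation of heparan sulfate, had 792, 729 and 661 in PTC2 against 28, 31 and 22 in LD (log2 4.71, SE 0.146, adjusted p = 3.83e-19). Chsy3, which encodes a chondroitin synthase, had 452, 411 and 399 in PTC2 against 33, 20 and 34 in LD (log2 3.85). All 3 promoters were near closed in WT as well, with means of 12.33 (Trim68), 20.67 (Hs3st3b1) and 26.33 (Chsy3), so of PTC2 and LD it was PTC2 that was away from WT. PTC1 was open too at Trim68 (mean 938.7) and Hs3st3b1 (486.3) but not at Chsy3 (20).

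At 5 of the 11 promoters LD but not PTC2 was away from WT by at least 1 on the log2 scale, though PTC2 minus WT was called as well at Rnls (0.98), Bicd1 (0.96) and Gabre (-0.65). Gabre, a subunit of the GABA-A receptor, had 363, 368 and 358 in PTC2 against 22, 21 and 18 in LD (log2 4.10, adjusted p = 7.46e-17), with a WT mean of 573.3. Bicd1, a dynein cargo adaptor, had 416, 446 and 424 in PTC2 against 18, 34 and 29 in LD (log2 3.99), with a WT mean of 220.3. Rnls, which encodes renalase, had 425, 456 and 414 in PTC2 against 21, 31 and 14 in LD (log2 4.30), and Igsf1, an immunoglobulin superfamily protein, had 166, 129 and 145 in PTC2 against 10, 9 and 6 in LD (log2 4.00). Il1rapl1 belongs to this group too, since WT averaged 180. PTC1 was low like LD at Igsf1 (mean 12.33) and not at the other genes of this group.

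At the other 3 promoters both lines were at least 1 from WT, PTC2 upward and LD downward. Fzd3, a WNT receptor of the frizzled family, had 334, 305 and 328 in PTC2 and 18, 13 and 21 in LD (log2 4.16, SE 0.191, adjusted p = 7.66e-16), around a WT mean of 139. Gng2, a gamma subunit of heterotrimeric G proteins, had 775, 805 and 691 in PTC2 and 29, 35 and 30 in LD (log2 4.55, SE 0.133, adjusted p = 1.32e-19), around a WT mean of 81.67. Hsd17b11, of the 17-beta-hydroxysteroid dehydrogenase family, differed by 3.79. PTC2 libraries were high and LD libraries low at all 11, with no overlap, as the rule that chose them requires.

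The 12 largest falls, of 1101 start sites that met the same conditions, ran from -4.37 to -6.56. Mga, which encodes a transcription factor that pairs with MAX, had 12, 10 and 0 in PTC2 against 506, 514 and 463 in LD (log2 -6.56, SE 0.511, adjusted p = 2.27e-11). Its WT mean of 477.7 ± 35.8 was close to the LD mean of 494.3 ± 27.4, and without one library at a time the difference ran from -7.22 to -5.37. Pcdh9, a protocadherin gene for cell adhesion, had 16, 19 and 16 in PTC2 against 1048, 880 and 1043 in LD (log2 -5.78, SE 0.143, adjusted p = 6.91e-21). Gpc6, which encodes a glypican, had 23, 58 and 28 in PTC2 against 1601, 1560 and 1641 in LD (log2 -5.54, SE 0.188, adjusted p = 1.94e-18).

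In 8 of these 12 PTC2 but not LD was away from WT by at least 1 on the log2 scale. Of these, PTC1 was also low at Mga (mean 15), Pcdh9 (33.33), Pcdh7 (58), Kcnt2 (97.33) and Zfp518b (14.67), but not at Gpc6, Ptgr2 and Trav12-2. Beside Mga, Pcdh9 and Gpc6 the 8 were Pcdh7, another protocadherin gene (24, 16 and 22 in PTC2, against 596, 580 and 579 in LD), Kcnt2, a sodium-activated potassium channel gene (12, 9 and 10 in PTC2, against 273, 294 and 312 in LD), Ptgr2, a prostaglandin reductase gene (-4.52), Zfp518b, a zinc finger gene (-4.37), and Trav12-2, a variable segment of the T cell receptor alpha locus (-5.63). LD was above WT by less than that, with a call, at Pcdh9 (0.67) and Zfp518b (0.76). At the other 4 LD was above WT by at least 1. Chst2, a carbohydrate sulfotransferase gene, had 28, 39 and 37 in PTC2 and 1088, 1034 and 1075 in LD (log2 -4.92, SE 0.129, adjusted p = 1.72e-20), around a WT mean of 215.7. Rftn1, which encodes a lipid raft protein, differed by -4.94, the cholesterol exporter gene Abca1 by -4.62 and the WNT pathway gene Dact1 by -4.38. PTC2 libraries were low and LD libraries high at every one of the 12, again without overlap by the rule that chose them.

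**Figure D2:**
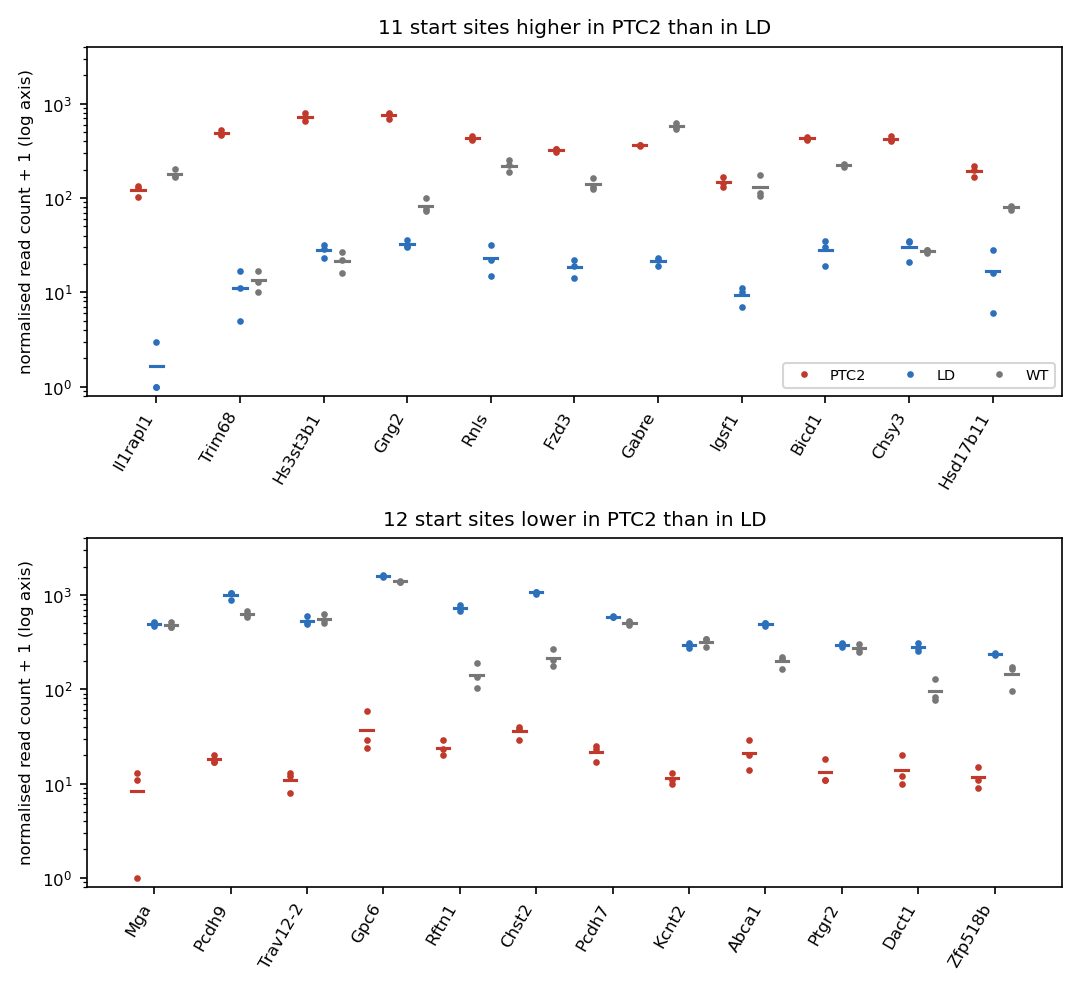
Normalised read count plus 1, on a log axis, at 11 of the start sites with the largest rise (top) and the 12 with the largest fall (bottom) in PTC2 relative to LD, for each PTC2, LD and WT library (points) with group means (lines). PTC2 and LD libraries do not overlap at any of the 23, and WT lies with LD at some genes, with PTC2 at others and between them at the rest.

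Where WT stood was also counted over all regions with a called difference of at least 1. WT was nearer to LD in 65.6% of the 7243 regions higher in PTC2 and in 69.4% of the 11135 lower ones. PTC1, the other premature stop line, was nearer to PTC2 in 57.6% of the higher and 53.8% of the lower regions. The lines stood on opposite sides of WT, both by at least 1 and both called, in 309 regions with PTC2 above and LD below and in 505 regions with PTC2 below and LD above. These placements use the same PTC2 and LD libraries as the calls and are given as counts only.

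Promoter sequence is shown for 3 of the genes higher in PTC2, 3 lower and 1 that both lines opened, to set the letters of promoters with opposite behaviour side by side. Each line gives the 250 bases before the RefSeq start (GRCm38.p6, the assembly that mm10 is built on), 5′ to 3′ on the gene's strand. Capitals mark matches on either strand to a TEAD motif (GGAATG or CATTCC), an AP-1 motif (TGANTCA) or a GC box (GGGCGG or CCGCCC). Igsf1 (chrX:49797746-49797995, minus strand), Bicd1 (chr6:149408734-149408983, plus strand) and Hsd17b11 (chr5:104021797-104022046, minus strand) were higher in PTC2. Mga (chr2:119896978-119897227, plus strand), Pcdh9 (chr14:93890670-93890919, minus strand) and Dact1 (chr12:71309634-71309883, plus strand) were lower. P2ry2 (chr7:101011999-101012248, minus strand) was open alike in PTC2 and LD and more than in WT.
Igsf1: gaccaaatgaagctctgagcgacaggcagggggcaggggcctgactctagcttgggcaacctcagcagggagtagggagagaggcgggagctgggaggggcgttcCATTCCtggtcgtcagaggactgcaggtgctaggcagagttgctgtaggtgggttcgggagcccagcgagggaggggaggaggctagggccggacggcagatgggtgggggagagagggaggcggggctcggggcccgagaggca
Bicd1: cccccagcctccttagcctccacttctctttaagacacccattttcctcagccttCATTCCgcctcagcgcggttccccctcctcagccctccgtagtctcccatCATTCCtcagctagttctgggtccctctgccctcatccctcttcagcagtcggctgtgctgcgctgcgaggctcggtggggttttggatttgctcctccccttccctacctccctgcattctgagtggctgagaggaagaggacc
Hsd17b11: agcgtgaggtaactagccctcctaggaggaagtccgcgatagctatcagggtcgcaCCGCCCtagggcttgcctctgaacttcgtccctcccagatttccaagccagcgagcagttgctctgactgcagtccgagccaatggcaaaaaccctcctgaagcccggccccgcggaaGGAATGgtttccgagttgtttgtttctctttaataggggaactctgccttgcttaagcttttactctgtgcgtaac
Mga: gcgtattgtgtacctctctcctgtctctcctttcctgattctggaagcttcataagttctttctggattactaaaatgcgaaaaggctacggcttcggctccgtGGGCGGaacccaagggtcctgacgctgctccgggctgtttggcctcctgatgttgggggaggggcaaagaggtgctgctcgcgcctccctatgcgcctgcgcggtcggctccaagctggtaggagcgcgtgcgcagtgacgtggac
Pcdh9: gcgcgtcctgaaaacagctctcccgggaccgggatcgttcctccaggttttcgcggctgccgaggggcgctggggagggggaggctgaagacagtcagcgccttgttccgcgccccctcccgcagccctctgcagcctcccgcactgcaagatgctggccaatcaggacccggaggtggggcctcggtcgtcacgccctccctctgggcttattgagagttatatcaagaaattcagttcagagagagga
Dact1: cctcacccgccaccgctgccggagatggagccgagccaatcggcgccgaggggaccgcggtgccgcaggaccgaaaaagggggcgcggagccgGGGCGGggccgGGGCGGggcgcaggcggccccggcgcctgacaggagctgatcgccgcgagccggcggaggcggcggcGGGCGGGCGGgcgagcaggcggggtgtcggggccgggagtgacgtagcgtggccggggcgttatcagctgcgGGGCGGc
P2ry2: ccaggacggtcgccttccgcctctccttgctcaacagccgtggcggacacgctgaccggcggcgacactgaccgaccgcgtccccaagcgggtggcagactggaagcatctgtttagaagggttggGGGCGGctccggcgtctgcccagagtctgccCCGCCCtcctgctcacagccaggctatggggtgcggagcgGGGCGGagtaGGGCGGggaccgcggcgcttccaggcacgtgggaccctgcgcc

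The 3 promoters higher in PTC2 were picked because each holds a TEAD motif, 2 in Bicd1. Il1rapl1, Trim68, Hs3st3b1, Gng2 and Gabre, also higher in PTC2, hold none in the same 250 bases. The other 4 promoters shown hold none either, while Acta2 and Fam71f1, not shown, hold 1 each. Dact1, picked for its many CG dinucleotides, holds 5 GC boxes, and P2ry2, picked for its GC boxes, holds 4. The contrast between these 7 thus follows from how they were picked, and the shares over all matched promoters are given for scale. A RefSeq window of 300 bases, 250 before and 50 after the start, was matched for 7053 genes with a start-site region. The TEAD motif was in 23.9% of the 142 matched promoters higher in PTC2 by at least 1, 8.0% of the 200 lower by at least 1, 10.9% of the 5221 alike, 11.4% of all 7053 and 14.7% of the 32851 promoters in the whole RefSeq table. The AP-1 motif was in 7.75% of the higher, 12.5% of the lower, 4.0% of the alike, 4.96% of all 7053 and 7.81% of all table promoters. GC boxes were in 58.5% of the higher, 61.5% of the lower, 71.9% of the alike, 70.1% of all 7053 and 35.7% of all table promoters.

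Base composition moved with these sets. The higher promoters held a mean of 14.7 ± 9.86 CG dinucleotides (SD), the lower 20.7 ± 12.2 and the alike 24.1 ± 10.6, against 12.4 ± 12.4 over the table. The ETS motif CCGGAAG, which holds a CG, was in 7.75% of the higher, 7.0% of the lower, 21.4% of the alike and 19.6% of all 7053. The part of base composition in the motif shares was not tested. A match of letters is no evidence that a factor bound there, and PTC2 and LD were not compared for binding.

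Regions with no listed gene were ranked under the same limits of level, overlap and spacing, and the 3 largest per direction are given. They reached 7.05 and -7.33, beside 6.38 and -6.56 at the start sites described above. On chromosome 13, chr13:101427568-101428369 had 1301, 1188 and 1380 in PTC2 against 6, 13 and 14 in LD (log2 6.82, SE 0.199, adjusted p = 1.22e-19), and WT averaged 750. On chromosome 11, chr11:56603608-56604286 had 302, 307 and 311 in PTC2 against 1, 3 and 1 in LD (log2 6.93). On chromosome 15, chr15:65550723-65551286 had 244, 225 and 251 in PTC2 against 2, 0 and 1 in LD, a ratio of 220 with a 95% counting interval of 75.1 to 1070.

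In the other direction, chr4:70903937-70904738 had 2, 7 and 0 in PTC2 against 487, 453 and 446 in LD (log2 -7.33, SE 0.416, adjusted p = 4.78e-14). The WT mean there was 467, so LD was at the WT level. At chr5:57755768-57756195 the values were 3, 2 and 2 in PTC2 against 264, 228 and 293 in LD (log2 -6.31), and at chr14:117073288-117074001 they were 1, 1 and 7 in PTC2 against 179, 245 and 205 in LD (log2 -6.04). The table lists no gene for them, but by RefSeq coordinates (GRCm38.p6) the chromosome 5 region lies inside Pcdh7 (57716145 to 58133236) and the chromosome 14 region inside Gpc6 (116924920 to 117979529).

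Gene groups were read next, starting with the cytoskeleton. Since the general tilt moves these counts, the counts under loess are given beside most of them. Over all genes 47.5% were higher in PTC2, 16.3% lower and 62.1% alike within 1.5-fold. Of 29 measured factors and contractile targets of the MRTF-SRF pathway, which senses free actin monomer, 21 were higher in PTC2 and 3 were lower, with a median difference of 0.29 beside 0.16 over all genes. Zyx, which encodes the focal adhesion protein zyxin, had 6690, 6350 and 6281 in PTC2 against 3646, 3383 and 3522 in LD (log2 0.87, adjusted p = 4.02e-14), and Cald1, the caldesmon gene, differed by 1.01. Both lie on chromosome 6, and local centring left 0.24 at Zyx and 0.55 at Cald1. Synpo2, the gene for a Z-disc protein, went the other way with 43, 51 and 71 in PTC2 against 153, 164 and 163 in LD (log2 -1.55), as did Mylk, the myosin light chain kinase gene (-0.75). Of the 29, 14 were alike within 1.5-fold, and under loess 14 members were higher and 7 lower.

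Actin nucleators, which start filaments, were higher in 12 of 18 and lower in 1, and 14 were alike within 1.5-fold. Wasl, an activator of the Arp2/3 complex, had 2661, 2613 and 2421 in PTC2 against 1348, 1216 and 1265 in LD (log2 1.01, adjusted p = 2.08e-13, and 0.62 after local centring), and Diaph1, a formin gene, differed by 0.58 (0.18 after local centring). Without PTC2 replicate 1 or LD replicate 2, 2 nucleators were lower. Of 19 genes for monomer binding, severing and capping, 8 were higher and 4 lower, and 11 were alike within 1.5-fold. Capg, a capping protein gene, was higher by 1.07 and Tmsb10, a thymosin gene, by 0.81, but both lie on chromosome 6 and local centring left 0.22 at Capg and 0.14 at Tmsb10. Tmsb4x, another thymosin gene, was lower, at -0.64, though local centring turned it to 0.09, and Cap2, of the cyclase-associated proteins, was lower, at -1.37. Under loess 4 nucleators were higher and 2 lower, and 6 and 8 of the monomer group.

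YAP-TEAD regulators and targets, which also respond to the cytoskeleton, were higher in 12 of 18 and lower in 1. Most of them, 15 of 18, were alike within 1.5-fold. Amotl2, an angiomotin family gene, differed by 0.52 and Ankrd1, a YAP target, by -0.66 with 446, 448 and 449 in PTC2 against 715, 704 and 705 in LD (-0.24 after local centring). Immediate early genes were higher in 14 of 19 and lower in 3, and 11 were alike within 1.5-fold. Klf6 was higher by 1.00 and Nr4a1 by 0.72 (0.42 after local centring), while Egr3 had 116, 134 and 133 in PTC2 against 422, 398 and 406 in LD (log2 -1.67). Both lists shrank under loess, to 4 higher and 4 lower of the YAP-TEAD list and to 9 higher and 6 lower of the early genes.

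Genes of RNA decay were mostly alike in both lines, as genes were in general: over all genes 62.1% were alike, 47.5% higher and 16.3% lower. Of 18 nonsense-mediated decay genes, 9 were higher, 1 was lower and 15 were alike within 1.5-fold. Loess turned this to 2 higher and 4 lower, and without LD replicate 3 there were 5 higher. Upf3b, which links the exon junction complex to decay, had 1123, 1113 and 1240 in PTC2 against 713, 610 and 720 in LD (log2 0.77, adjusted p = 2.75e-09, and 0.23 after local centring), and Etf1, the release factor gene, differed by 0.53 (0.34 under loess). Of 22 other mRNA decay genes, 12 were higher, 3 lower and 17 alike (9 higher and 4 lower under loess), with Exosc4 of the exosome at 0.57, Dcp1a of decapping at 0.51 and Dis3l2, a 3′ exonuclease gene, at -0.75. Local centring left 0.13 at Exosc4 and 0.07 at Dcp1a, neither of them called. Of 15 COMPASS genes, which carry out methylation of histone H3 lysine 4, 6 were higher and 4 lower (4 higher and 5 lower under loess). Without PTC2 replicate 2 the COMPASS list had 1 lower gene, and without PTC2 replicate 3 or LD replicate 1 it had 2. Hcfc1, on the X chromosome, differed by 0.68 but by -0.02 after local centring, and Cxxc1 by 0.59 and 0.46.

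**Figure D3:**
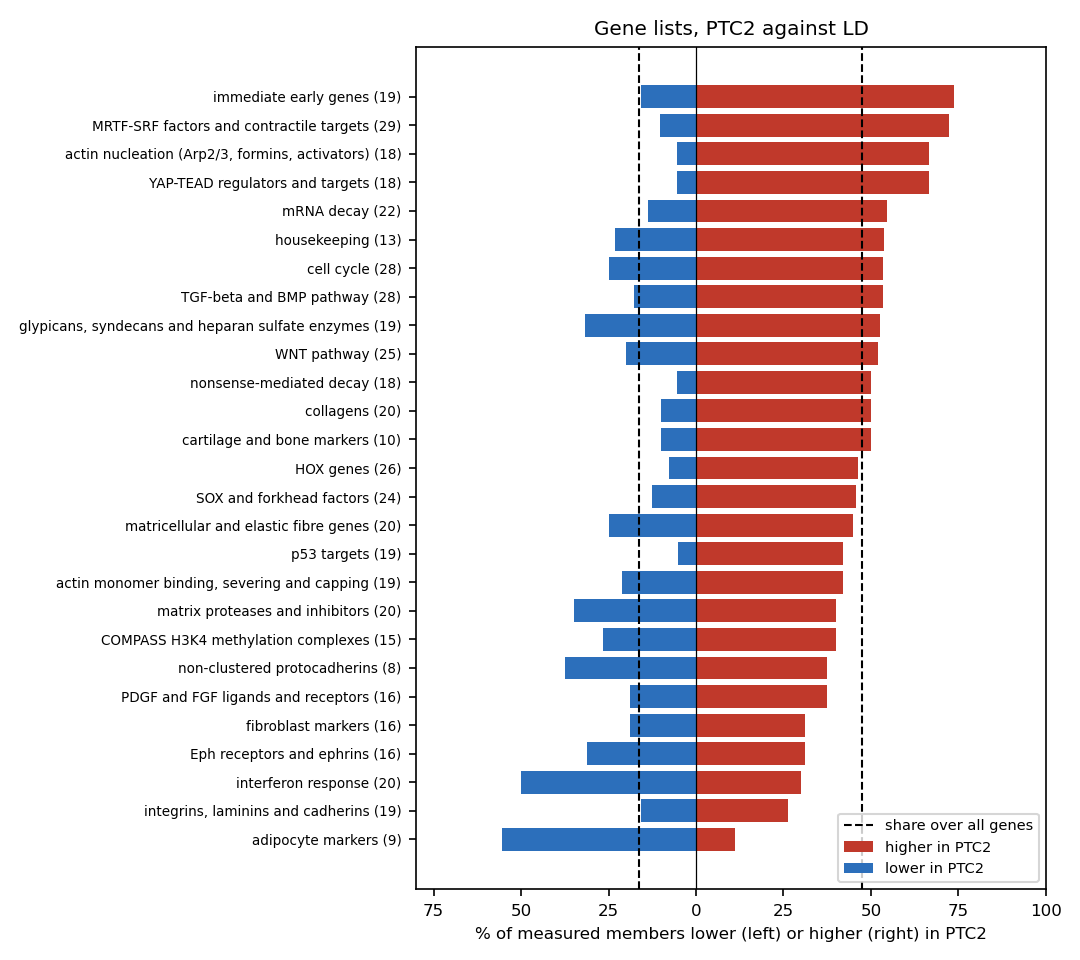
Share of each gene list's measured members (number in brackets, lists with 8 or more) that were lower (blue, left) or higher (red, right) in PTC2 than in LD, with dashed lines at the shares over all genes, 16.3% and 47.5%. Immediate early and MRTF-SRF genes have the largest red bars, and adipocyte markers and interferon response genes have more members lower than higher, though interferon genes do not with every library at the same median.

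Matrix and cell surface genes moved in both directions, as genes did in general (47.5% higher and 16.3% lower over all genes). Of 20 collagens, 10 were higher and 2 lower (9 and 3 under loess): Col11a1 had 1126, 1017 and 1104 in PTC2 against 594, 636 and 634 in LD (log2 0.80), Col1a2 was higher by 0.65 but by -0.11 after local centring, and Col7a1 was lower, at -0.64. Of 20 matricellular and elastic fibre genes, 9 were higher and 5 lower, which loess turned to 8 and 9. Mfap5, a microfibril gene, had 157, 129 and 189 in PTC2 against 40, 39 and 35 in LD (log2 2.02), and Spp1, the osteopontin gene, had 156, 148 and 133 in PTC2 against 354, 351 and 284 in LD (log2 -1.17). Fbln2, a fibulin gene, differed by 0.98 (0.37 after local centring) and Fbn2, a fibrillin gene, by -1.10.

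Matrix proteases and their inhibitors were higher in 8 of 20 and lower in 7 (7 each under loess). Mmp13, a collagenase gene, had 185, 199 and 177 in PTC2 against 509, 624 and 466 in LD (log2 -1.50), and Mmp15 differed by -1.18, while Mmp19 was higher by 1.06 and Timp1 by 0.51, with Timp1 at -0.07 after local centring. Of 19 glypican, syndecan and heparan sulfate enzyme genes, 10 were higher and 6 lower, which loess turned to 7 and 8. Beside Hs3st3b1 and Gpc6, Ext1, a heparan sulfate polymerase gene, was higher by 0.96, and Gpc2 had 68, 73 and 82 in PTC2 against 793, 690 and 799 in LD (log2 -3.34, SE 0.114, adjusted p = 2e-18).

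Adhesion genes differed in both directions, as genes did in general (47.5% higher and 16.3% lower over all genes). Of 19 integrins, laminins and cadherins, 13 were alike within 1.5-fold, 5 were higher and 3 lower. Loess turned the higher and lower counts to 6 and 8, and 6 were lower without PTC2 replicate 1. Lamb1, a laminin chain gene, had 24, 21 and 32 in PTC2 against 400, 388 and 489 in LD (log2 -4.01, SE 0.17, adjusted p = 1.66e-16). Itga2, a collagen receptor subunit, was lower, at -1.40. The 8 measured protocadherins split into 3 higher and 3 lower (2 and 3 under loess), with Pcdh20 (2.05) and Pcdh11x (1.07) opposite to Pcdh9 and Pcdh7. The 16 Eph receptors and ephrins split into 5 and 5 (4 higher and 8 lower under loess, and 3 lower without PTC2 replicate 3), with Epha1 higher by 1.71 (1.09 after local centring) and Efnb1 by 0.73, with Efnb1 at -0.23 after local centring, while Epha7 (-1.35, and -0.30 after local centring) and Ephb1 (-0.84) were lower.

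Among signalling pathways, 13 of 25 WNT genes were higher and 5 lower (9 and 6 under loess). Fzd6, like Fzd3 a receptor, had 175, 158 and 152 in PTC2 against 26, 13 and 13 in LD (log2 3.22, SE 0.241, adjusted p = 1.04e-11). Lef1, which encodes a nuclear effector of the pathway, had 35, 33 and 45 in PTC2 against 336, 269 and 399 in LD (log2 -3.11, SE 0.168, adjusted p = 1.88e-14), and Sfrp2, a secreted antagonist, differed by -1.14. So the receptors and the effector with the largest changes went opposite ways. Of 28 TGF-beta and BMP genes, 15 were higher and 5 lower, which loess turned to 6 and 10, and 2 were lower without LD replicate 3. Grem1, a BMP antagonist, had 235, 202 and 219 in PTC2 against 823, 715 and 705 in LD (log2 -1.77) and Bmpr1b, a receptor, was lower, at -1.20, while Id2 (0.56) and Smad7 (0.52) were at -0.01 and -0.12 after local centring.

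PDGF and FGF genes were higher in 6 of 16 and lower in 3, with Fgfr4 at 0.65 (0.41 after local centring). Loess turned these counts to 4 and 5. The number lower was 5 without PTC2 replicate 1, 0 without PTC2 replicate 2, and 1 without PTC2 replicate 3, LD replicate 1 or LD replicate 3. Of 20 interferon response genes 6 were higher and 10 lower, with a median of -0.19, but 7 were higher and 5 lower, with a median of -0.02, once every library was brought to the same median. Ifih1, an RNA sensor, had 38, 45 and 51 in PTC2 against 127, 146 and 174 in LD (log2 -1.71, adjusted p = 7.93e-09), and local centring left -0.37 with an adjusted p of 0.0834. Mx2, an antiviral GTPase gene, had 299, 238 and 325 in PTC2 against 561, 486 and 523 in LD (log2 -0.87, and -0.47 after local centring), and WT exceeded both with a mean of 742. Under loess 5 interferon genes were higher and 11 lower.

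Of 26 HOX genes 12 were higher and 2 lower (13 and 3 under loess, and 1 lower without PTC2 replicate 2 or LD replicate 3), and the direction went with the cluster. The Hoxa genes on chromosome 6 were higher in 7 of 8 (median 0.66), the Hoxc genes on chromosome 15 in 5 of 8 (median 0.89), the Hoxb genes on chromosome 11 in 0 of 5 and the Hoxd genes on chromosome 2 in 0 of 5, with 2 lower. After local centring the cluster medians lay between -0.01 and 0.16. Hoxc11 stood out with 132, 148 and 131 in PTC2 against 16, 14 and 9 in LD (log2 3.33, and 2.51 after local centring). Hoxa7 differed by 0.76 (0.17 after local centring) and Hoxd4 by -0.56, with -0.19 left at Hoxd4 after local centring (adjusted p = 0.119). Of 24 SOX and forkhead genes 11 were higher and 3 lower (9 each under loess), with Foxp1 at 0.80, Foxf1 at 0.94 and Foxa2 at -1.67, and local centring left 0.07 at Foxp1 and 0.34 at Foxf1.

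Cell cycle genes were higher in 15 of 28, lower in 7 and alike in 22, and loess turned this to 7 higher and 12 lower. Mcm2 and Mcm3, of the replicative helicase, were higher by 0.92 (Mcm2) and 0.59 (Mcm3), with Mcm2 at -0.01 after local centring, and Cdkn2b, a CDK inhibitor gene, had 929, 897 and 832 in PTC2 against 1449, 1484 and 1391 in LD (log2 -0.70, and -0.31 after local centring). Ccnd3, a D-type cyclin, was lower, at -0.72. Of 19 p53 targets 8 were higher and 1 lower, which loess turned to 4 and 6, and 3 were lower without PTC2 replicate 1 and 2 without LD replicate 2. Gadd45a was higher by 0.84 (0.25 after local centring) and Tigar by 0.52, with 0.10 left at Tigar after local centring, while Perp fell to 7, 10 and 10 in PTC2 against 49, 46 and 56 in LD (log2 -2.37). Of 13 housekeeping genes 7 were higher and 3 lower, which loess turned to 3 and 5, with Ywhaz at 0.57, Pgk1 at 0.71 and Gusb at -0.65, and local centring left 0.16 at Ywhaz and 0.22 at Pgk1.

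Longer lists of genes that mark fibroblasts and other cell types hold the defining markers above and more. Of 16 fibroblast markers 5 were higher and 3 lower (5 each under loess), among them Postn, the periostin gene, with 68, 75 and 57 in PTC2 against 6, 16 and 15 in LD (log2 2.44) and Fap, with 4, 4 and 4 in PTC2 against 33, 29 and 29 in LD (log2 -2.65, and -1.31 after local centring). Adipocyte markers were lower in 5 of 9 and higher in 1 (2 without LD replicate 1). Fabp4 was the higher marker, at 0.51 to 0.72 without 1 PTC2 or LD library at a time. Cebpa had 590, 518 and 543 in PTC2 against 1011, 1034 and 1036 in LD (log2 -0.90, adjusted p = 8e-11) and Pparg, the master regulator of fat cells, 76, 68 and 82 in PTC2 against 140, 134 and 138 in LD (log2 -0.86), with WT means of 536.3 and 64. LD was thus the line above WT at both.

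Cartilage and bone markers were higher in 5 of 10 and lower in 1 (Spp1, above), with Comp at 0.93 (0.56 after local centring) and Runx2 at 0.71. Of 6 epithelial markers 3 were higher and 3 lower: Krt5, a basal keratin gene, had 936, 920 and 933 in PTC2 against 126, 120 and 88 in LD (log2 3.07, SE 0.114, adjusted p = 1.04e-17), while the tight junction genes Cldn4 (-1.35) and Cldn3 (-1.12) were lower. Of 7 endothelial markers 3 were higher and 4 lower, with Erg at 1.06, Tek at -2.22 and Vwf at -2.19. Of 5 blood cell markers Ptprc alone was called, with 354, 361 and 349 in PTC2 against 573, 500 and 540 in LD (log2 -0.60). Of 5 neural markers with a region in the longer list 1 was higher and 3 were lower, and of 7 muscle markers 1 was higher (0 without PTC2 replicate 3). The part of other cell types in these differences was not tested.

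Differences also ran along chromosomes. The median over the regions of chromosome 6 was 0.43, over chromosome 15 0.34 and over chromosome 18 0.23, while chromosome 2 had -0.32, chromosome 9 -0.16 and chromosome 19 -0.14. On chromosome 6, PTC2 minus WT had a median of 0.08 and LD minus WT one of -0.35, so LD stood apart from WT there. On chromosome 2 the medians were -0.18 for PTC2 minus WT and 0.13 for LD minus WT. Both lines were below WT on chromosome 18 (PTC2 -0.28, LD -0.55) and on the X chromosome (PTC2 -0.27, LD -0.52). PTC2 minus LD on the X chromosome had a median of 0.11 over all regions and 0.63 over start sites. Copy number and accessibility cannot be told apart in these values.

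**Figure D4:**
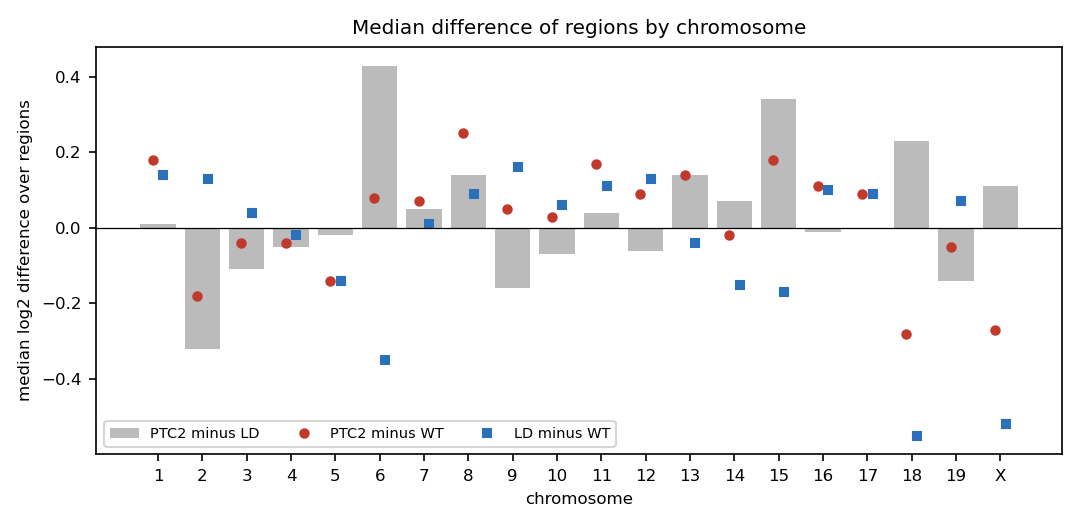
Median log2 difference over the regions of each chromosome (x axis) for PTC2 minus LD (grey bars), PTC2 minus WT (red circles) and LD minus WT (blue squares). Chromosomes 6 and 15 are highest at 0.43 and 0.34, and chromosome 2 is lowest at -0.32.

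Within chromosomes, neighbouring regions that were all called in 1 direction formed stretches. Counting runs of 10 or more, there were 129 stretches higher and 144 lower in PTC2, with 3742 regions or 7.58% of those called, and 194 of the 273 had a median difference of at least 1 in size. Stretches were ranked by number of regions and not by bases. The longest higher stretch by that measure, chr14:19841137-20201561, held 27 regions with a median of 2.85 and included Gng2. The longest lower one, chrX:157501076-160138964, held 49 regions with a median of -1.66, among them those of Mbtps2, Eif1ax, Map7d2, Sh3kbp1 and Pdha1. There LD was above WT by a median of 1.31 and PTC2 was at -0.11.

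Other named genes sat in stretches too, which were looked up after the genes had been seen. Gpc6 lay in a lower stretch of 26 regions on chromosome 14 with a median of -2.83, in which PTC2 was at -2.79 from WT. Ifih1 and Fap shared a lower stretch of 25 regions on chromosome 2 with a median of -2.63. Smad7 lay in a higher stretch of 25 regions on chromosome 18 with a median of 0.80.

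The end of chromosome 11 beyond Actg1 was looked at for the same reason, after its values had been seen. From 120369661, the first region past the gene, to the last region of the chromosome, 73 of 85 regions were lower in PTC2 and 4 were higher, with a median of -0.78. PTC2 minus WT had a median of -0.65 over these regions and LD minus WT one of 0.12. The 50 regions before the gene had a median of -0.24, and the rest of chromosome 11 before the gene 0.04. PTC2 was thus lower over most regions between the edited gene and the chromosome's end, and the source of this was not tested.

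What the lines share away from WT was counted by a joint rule: alike within 1.5-fold, mean of both lines called against WT, and each line at least 1 on the log2 scale from WT in the same direction. It found 339 regions higher than in WT (0.413%) and 210 lower (0.256%), beside 24.1% and 27.4% of regions in which the mean of both lines was called higher or lower than WT. The share at regions with no gene was 79.1% of the higher and 78.1% of the lower. In the higher regions PTC2 had a median of 168, LD 168, PTC1 79.3 and WT 61.3, and in the lower regions PTC2 had 134, LD 137, PTC1 248 and WT 349. Both lines are set against the same WT libraries, so a WT library that strays moves both.

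PTC1 shared these shifts only in part. It was over WT by at least 1 in 96 and under WT by at least 1 in 38 of the 339 higher regions, and it was under in 51 and over in 10 of the 210 lower ones. The rule that chose these regions used PTC2 and LD but not PTC1, so these counts cannot show how the 3 mutants group.

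The start sites that both lines opened included receptors and metabolic genes. Of 15 that met the conditions on level, gene and spacing, the 8 with the largest rise are given. Ldhb, a lactate dehydrogenase subunit, had 565, 512 and 477 in PTC2, 458, 343 and 455 in LD, against 94, 158 and 137 in WT (mean of both over WT 1.86, SE 0.115, adjusted p = 5.57e-14). Eya4, a transcriptional coactivator gene, had 660, 576 and 533 in PTC2, 478, 525 and 573 in LD, against 187, 127 and 163 in WT (1.81). P2ry2, a nucleotide receptor, had 252, 281 and 288 in PTC2, 270, 306 and 270 in LD, against 89, 95 and 60 in WT (1.78), and PTC2 minus LD was -0.04 (95% interval -0.26 to 0.17).

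Icoslg, a costimulatory ligand gene, had 369, 308 and 305 in PTC2, 303, 324 and 307 in LD, against 101, 100 and 89 in WT (1.71), whereas PTC1 had 27, 29 and 29. Scube3, a secreted signalling protein, rose by 1.63, B4galnt4, a glycosyltransferase, by 1.41, Gas6, a ligand of the Axl receptor family, by 1.38 and Spsb4, a SOCS box gene, by 1.31. The rule asks that no library of either line overlaps a WT library, which holds at these 8. P2ry2, Eya4, Icoslg, Scube3 and B4galnt4 kept the equivalence call without any 1 PTC2 or LD library. Ldhb lost it without PTC2 replicate 2 or 3 or LD replicate 1 or 3 (PTC2 minus LD 0.32 to 0.39), Gas6 without PTC2 replicate 2 or 3 or LD replicate 2 or 3 (-0.28 to -0.25) and Spsb4 without PTC2 replicate 1 or 2 or LD replicate 2 or 3 (-0.44 to -0.37).

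Only 5 start sites that both lines closed met the conditions. H1f10, a linker histone gene, had 545, 477 and 601 in PTC2, 552, 539 and 483 in LD, against 1203, 1361 and 1168 in WT (mean of both over WT -1.22, SE 0.0707, adjusted p = 1.35e-14). Nnmt, which encodes nicotinamide N-methyltransferase, had 190, 162 and 189 in PTC2, 184, 175 and 184 in LD, against 375, 410 and 414 in WT (-1.14), and PTC1 with 149, 131 and 127 was low as well. Fam71f1 was at -1.55 from WT, Smim3, a small membrane protein gene, at -1.19 and Ociad2 at -1.17. H1f10 and Fam71f1 lie on chromosome 6, and relative to their 50 nearest regions PTC2 minus LD was -0.60 and -0.62, so their likeness depends on the level of the surrounding regions. Ociad2 lost the equivalence call without LD replicate 1 (0.14) or LD replicate 3 (-0.08).

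**Figure D5:**
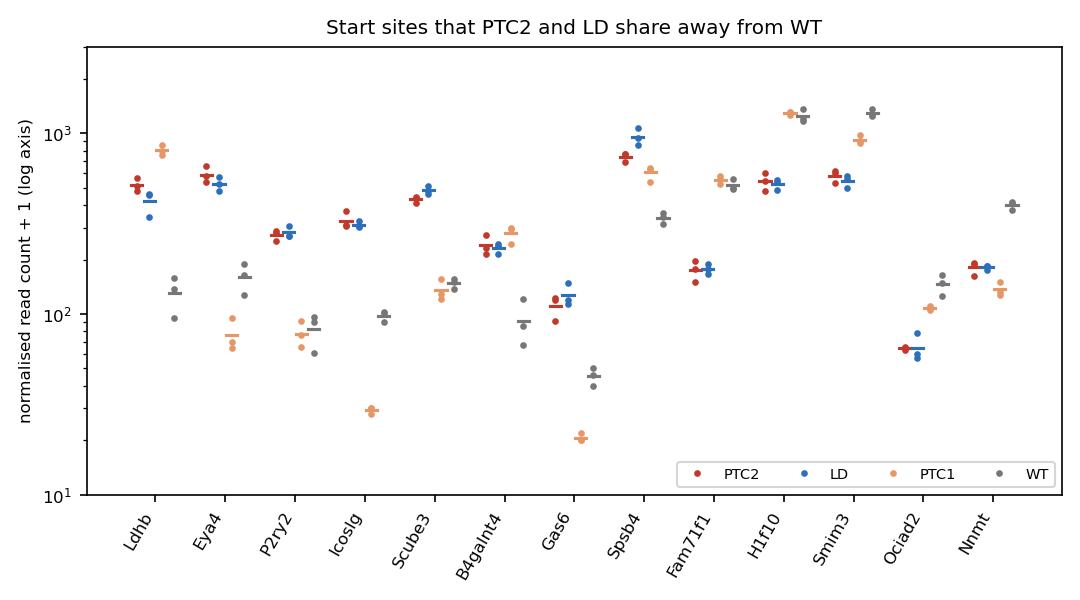
Normalised read count plus 1, on a log axis, at the 13 start sites that PTC2 and LD share away from WT, with each library of PTC2, LD, PTC1 and WT as a point and group means as lines. PTC2 and LD lie together above WT at the first 8 genes and below WT at the last 5, and PTC1 varies from gene to gene.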

How the data were processed

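ATAC-seq was made from 25000 NIH/3T3 cells per sample, lysed with digitonin and transposed with Tn5 for 30 min at 37 °C, and paired ends were read on a NextSeq 2000, per the labels' protocols. The authors deposited a table with 1 score per region and sample. Its values are whole but their sums lie close together, and some columns skip whole numbers at regular steps, so they were taken as read counts that the authors had scaled and rounded, and no count test was used. The fraction of a region inside a gene is as the authors deposited it and was only carried along. Build mm10 and the tools DESeq2 1.30.1, Picard 2.25.5, STAR 2.7.10a and Trimmomatic 0.39 appear, without their roles, in the submitters' processing notes. Which program called peaks and whether cut sites were shifted is not given in the sources used here.

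Reads per library are estimates from the factor that best described the uneven use of whole numbers in each column (numbers skipped for factors over 1, filled by 2 counts for factors under 1). Counting intervals cover counting error only. For the 81985 regions whose mean reached 5, limma 3.58.1 (R 4.3.3, empirical Bayes with a trend) was applied to log2(value + 1) of PTC2 and LD only, with no covariate. Contrasts with WT used all 12 libraries. Likeness used the larger of 2 one-sided moderated p-values against a 1.5-fold bound. Each adjusted p is Benjamini-Hochberg over all regions tested, called under 0.05. The fit was also run on simulated libraries with few changed regions and no difference in depth between the groups. That run cannot speak to the depth and scaling limits of these data.

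Each gene was read at its listed region nearest the start site. Named genes were all actin regions, the 12 largest differences in each direction (mean of 100 or more in the higher line, no overlap of libraries, within 1000 bp of the start, 1 per 100000 bp), 3 per direction with no gene, up to 8 per direction shared away from WT, the longest stretches, and up to 2 members per list and direction with the lowest adjusted p and a log2 difference of 0.5 or more in size. Of the genes these rules name, 2 are not reported here and were not replaced. The last limit narrows a rule of up to 3 members and was set after values were seen. The members and lists were chosen with earlier results of these data known. Same-numbered PTC2 and LD libraries correlated at 0.013 to 0.045 in their deviations from the group means, and differently numbered ones at -0.029 to 0.012. The main fit used no pairing, and whether same-numbered libraries share a weak effect was not tested. Alternatives were other pseudocounts, filters, scalings and centrings, a 2-fold bound, a fit of all libraries, a replicate block and leaving out each library. Promoter windows are RefSeq's (GRCm38.p6).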

Additional observations from a re-analysis of the deposited data

How the results depend on the processing

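Leaving out each PTC2 or LD library in turn gave 22335 to 23402 regions higher and 22817 to 23503 lower in PTC2, 6968 to 7440 higher and 10781 to 11367 lower by at least 1 on the log2 scale, 21237 to 22615 alike, and 236 to 287 shared regions above and 146 to 172 below WT. Without each WT library, chosen after seeing the data, the shared counts were 346 to 363 and 202 to 225. A minimum mean of 50 left 3991 regions higher and 6816 lower by at least 1, since fewer regions were tested. A 2-fold bound, which is wider, called 49399 regions alike. A pseudocount of 10 gave 459 shared lower regions, and the cause was not tested. The replicate block, which treats same-numbered libraries as pairs, gave 25556 higher and 25283 lower regions. Actb was then called (adjusted p = 0.0488), as it was without LD replicate 1 (0.14, adjusted p = 0.0497).

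The direction of 12 PTC2 minus LD differences turned, each called in the main fit or, for Actb, only in the alternative. This does not count start sites shared away from WT, among which Ldhb turned (0.32, and -0.11 with chromosome centring). Loess normalization gave -0.15 at Actb and -0.04 at Acta2. Local centring gave -0.13 at Dguok, -0.22 at the 3′ region of Actg2, 0.09 at Tmsb4x, -0.02 at Hcfc1, -0.11 at Col1a2, -0.07 at Timp1, -0.23 at Efnb1, -0.01 at Id2, -0.12 at Smad7 and -0.01 at Mcm2. Differences near 0 that were not called were not counted, nor was Actc1, at 0.23 after local centring. The cause was not tested. The other called differences at named regions kept their direction under every alternative run, and all 23 named start sites outside the actins kept their call, between 3.07 and 6.91 in size among the higher and between -7.22 and -3.58 among the lower. Depth limits weak regions most: with few reads in 1 line, the size of a difference rests on the pseudocount.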
